A study of Mus musculus with 9 samples.

Results

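The nuclear-coded subunits of mitochondrial respiratory chain complexes I to IV were described in RNA from the mouse iris after an alkali burn of the cornea. Members were chosen by gene symbol alone, as rows whose symbol begins with *Nduf* followed by a, b, c, s or v and a number, equals *Sdha*, *Sdhb*, *Sdhc* or *Sdhd*, begins with *Uqcr*, or begins with *Cox* 4 to 8 followed by a, b or c, without *Cox6a2* and without pseudogene symbols. This gave 65 of the 18349 genes listed, namely 39 of complex I, 4 of complex II, 8 of complex III and 14 of complex IV. Of these, 63 had enough counts to be tested, and *Ndufb4b* and *Cox7b2* were near 0 in every library. The rule itself uses no measured value.

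Respiratory chain complexes sit in the inner mitochondrial membrane and pass electrons from NADH (complex I) or succinate (complex II) through complex III and cytochrome c to oxygen at complex IV. The proton gradient built by complexes I, III and IV drives ATP synthase. Most subunits are coded in the nucleus, some in tissue-specific isoforms, whereas the catalytic core of complex IV and part of complexes I and III are coded in mitochondrial DNA and were not analysed here. The iris holds a pigmented epithelium and the sphincter and dilator muscles, whose contraction uses ATP.

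Irises of C57BL/6J mice were sequenced in 9 libraries, 3 per group, and each library pooled 3 irises of identical genotype. Injured mice had 1 M sodium hydroxide (0.5 µL on filter paper) on the cornea for 60 s at 6 weeks of age, Sham mice had PBS, and all irises were collected 28 days later, at 10 weeks. The Sham and injured VEGFR3 fl/fl groups carried floxed *VEGFR3* alleles (tagged WT in the labels), and the injured VEGFR3 iLECko group carried in addition *Prox1-CreERT2*, which acts in lymphatic endothelial cells and in any other cell that expresses *Prox1*. By the methods of the study, these mice and their VEGFR3 fl/fl littermates both received tamoxifen at 80 mg/kg, on days 13 to 17 after injury. Pooled irises give no value per mouse, and in bulk RNA fewer cells of a type and less RNA per cell cannot be told apart.

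Total counts per library lay between 16617187 and 18306359, and levels are given as CPM, counts scaled to the size of the library and to edgeR's TMM factors, which were between 0.900 and 1.09. *Flt4*, the gene for VEGFR3, was above Sham after injury (log2 fold change 0.46, adjusted p = 0.0234) and in the libraries labelled VEGFR3 iLECko (0.80, adjusted p = 0.00161). Between the label and injury alone, none of the 4 lymphatic endothelial markers, *Flt4* among them, was called. By staining, the paper reports that lymphatic growth in the iris was blocked in VEGFR3 iLECko mice. As *Flt4* RNA was not called lower, these libraries are called by their label throughout. Markers of the iris were present, such as *Pmel*, a melanosome protein, with 144210 to 163268 counts in the Sham libraries. Y-linked genes had a mean log2 CPM of 3.53 to 5.16 in the Sham libraries and 4.93 to 4.97 in injured replicates 1 and 2, but of -2.37 in injured replicate 3 and -2.40 to -2.05 in the 3 libraries labelled VEGFR3 iLECko, so that Y-linked signal and label cannot be told apart against Sham. Sham replicate 2 was the highest library of its group for 58 of 63 members (92.1%), against 40.5% of all genes tested, injured replicate 1 for 47 (74.6%, against 38.8%) and iLECko replicate 1 for 46 (73.0%, against 37.1%). The same 3 libraries were also the highest for 75.0%, 61.3% and 55.3% of tested genes with a longest transcript under 1 kb, and members were short, with a median of 988 nt against 3411 nt for tested genes (GENCODE M21). Results are therefore given with and without these libraries and by transcript length.

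Promoter sequences are shown first for members on which the results turn, namely a general and a muscle-type isoform of the same subunit (*Cox8a* and *Cox8b*), a second muscle-type isoform (*Cox7a1*), the member that rose after injury (*Cox5a*) and a complex III subunit that fell (*Uqcr11*). The windows come from RefSeq (GRCm38.p6, the assembly called mm10 in the submitters' processing notes) and run from 250 bases before to 50 bases after the annotated start of transcription, on the gene's own strand. Capitals mark matches on either strand to short sequences bound by factors known for nuclear mitochondrial genes (GCGCATGC for NRF1, CCGGAAGT for the ETS factor GABP, AAGATGGCG for YY1 and AAGGTCA for estrogen-related receptors), and also TATAAA and CAGCTG, which were added after the windows were seen.
*Cox8a*, chr19:7217567-7217866, minus strand: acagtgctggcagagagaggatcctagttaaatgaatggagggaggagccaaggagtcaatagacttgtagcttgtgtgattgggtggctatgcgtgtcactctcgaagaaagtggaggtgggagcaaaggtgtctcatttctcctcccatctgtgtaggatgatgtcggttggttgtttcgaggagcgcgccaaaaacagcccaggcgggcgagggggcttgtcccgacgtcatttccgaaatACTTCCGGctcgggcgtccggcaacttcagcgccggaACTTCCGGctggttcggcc
*Cox8b*, chr7:140900397-140900696, minus strand: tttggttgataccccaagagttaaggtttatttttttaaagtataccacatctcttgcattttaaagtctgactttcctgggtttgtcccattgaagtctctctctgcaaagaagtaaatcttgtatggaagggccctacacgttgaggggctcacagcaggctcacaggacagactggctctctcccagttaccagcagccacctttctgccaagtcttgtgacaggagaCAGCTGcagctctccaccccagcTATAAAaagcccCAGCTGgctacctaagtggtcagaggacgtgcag
*Cox7a1*, chr7:30183921-30184220, plus strand: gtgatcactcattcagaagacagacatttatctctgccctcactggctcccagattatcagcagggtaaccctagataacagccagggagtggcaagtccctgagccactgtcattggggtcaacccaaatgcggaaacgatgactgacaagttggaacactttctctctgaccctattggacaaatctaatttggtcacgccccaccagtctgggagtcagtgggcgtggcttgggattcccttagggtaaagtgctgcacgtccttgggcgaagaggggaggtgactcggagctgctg
*Cox5a*, chr9:57520982-57521281, plus strand: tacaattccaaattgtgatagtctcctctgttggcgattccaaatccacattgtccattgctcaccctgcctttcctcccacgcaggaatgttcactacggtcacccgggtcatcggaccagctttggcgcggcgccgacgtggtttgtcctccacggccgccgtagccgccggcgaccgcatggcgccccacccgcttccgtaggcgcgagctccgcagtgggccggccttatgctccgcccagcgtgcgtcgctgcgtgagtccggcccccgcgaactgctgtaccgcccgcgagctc
*Uqcr11*, chr10:80406772-80407071, minus strand: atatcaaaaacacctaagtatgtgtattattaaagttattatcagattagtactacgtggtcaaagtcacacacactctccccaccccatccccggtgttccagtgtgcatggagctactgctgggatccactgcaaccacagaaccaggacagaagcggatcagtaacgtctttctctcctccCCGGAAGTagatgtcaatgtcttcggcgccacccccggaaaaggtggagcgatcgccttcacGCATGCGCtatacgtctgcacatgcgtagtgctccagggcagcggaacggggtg

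The *Cox8a* window held 2 matches to the ETS sequence and the *Cox8b* window none, whereas *Cox8b* held TATAAA and 2 copies of CAGCTG around its annotated start. *Uqcr11* held an NRF1 and an ETS match, and *Cox7a1* and *Cox5a* held no match to any of the 6 sequences. Of the 65 members, 54 had a window. The NRF1 sequence was in 7 of them (13.0%, against 3.05% of 27025 genes with a window and 5.34% of the tested genes), the ETS sequence in 4 (7.41%, against 4.31% and 7.94%), the YY1 sequence in 5 (9.26%, against 1.64% and 3.04%) and the estrogen-related receptor sequence in 4 (7.41%, against 5.38% and 3.96%). TATAAA was in 6 of the 54 (11.1%, against 15.7% of all genes with a window and 9.40% of the tested genes) and CAGCTG in 5 (9.26%, against 18.3% and 18.5%). Tested members with any of the first 4 sequences fell after injury in 11 of 19 cases (median log2 fold change -0.35), and those with none in 18 of 33 (median -0.30). A match is a description of these letters and not a binding site.

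Much of the respiratory chain was lower after injury. Compared with Sham VEGFR3 fl/fl, 35 of 63 members fell in injured VEGFR3 fl/fl irises at an adjusted p under 0.05 (edgeR's quasi-likelihood test, Benjamini-Hochberg adjustment over 15010 genes), against 28.4% of all genes tested, and 1 member, *Cox5a*, rose, against 31.5%. The count was 21 of 38 for complex I, 3 of 4 for complex II, 5 of 8 for complex III and 6 of 13 for complex IV. The median log2 fold change of the members was -0.34, against 0.01 over all genes tested, and 53 of 63 members had a negative change. A decrease of more than 1.5-fold was seen in 13 members (20.6%), which is close to the 17.5% of all genes tested. Of these 13, 6 belonged to complex I, 2 to complex II, 1 to complex III and 4 to complex IV. In 35 members, all 3 injured libraries lay below all 3 Sham libraries, against 32.4% of all genes. The 27 members with no call had log2 fold changes from -0.39 to 0.43.

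**Figure D1:**
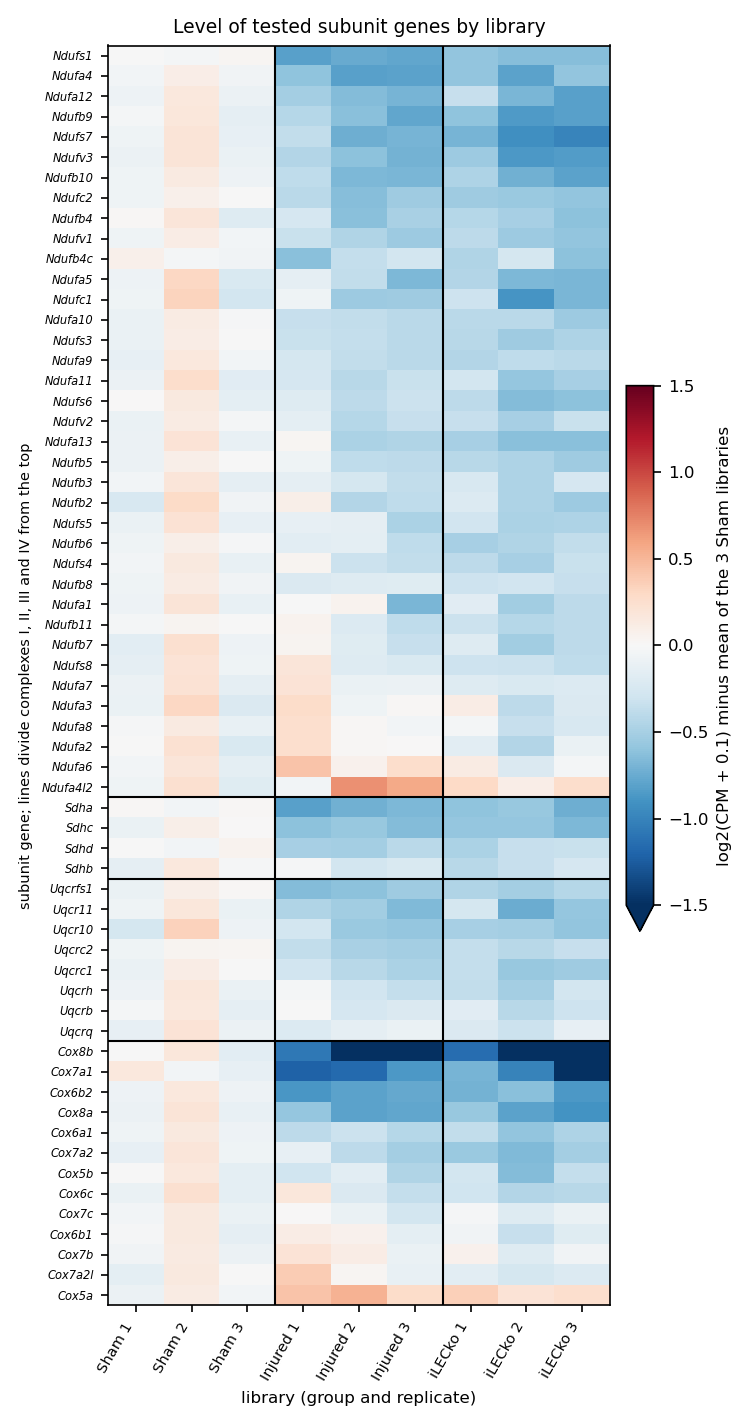
Level of 62 of the 63 tested subunit genes (rows, ordered by complex and by change after injury) in each of the 9 libraries (columns), as log2(CPM + 0.1) minus the mean of the 3 Sham libraries. Blue rows run through most of the chain in all 6 injured libraries, *Cox5a* is the called member above Sham, and Sham 2 stands above the other Sham libraries for most genes.

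The members were also lower when libraries were left out and within classes of transcript length, with other counts. Without Sham replicate 2, 26 members fell, against 25.8% of all genes in that fit. Of these, 7 fell by more than 1.5-fold, against 17% of all genes, which was below that share. Without that library and injured replicate 1, 33 fell, against 26.5% of all genes. Without injured replicate 3, so that all VEGFR3 fl/fl libraries had Y-linked expression, 27 fell, against 26.2% of all genes, and the median was -0.28. Decreases of more than 1.5-fold were then seen in 9 members, against 17.1%, and without injured replicate 2 in 11, against 17.5%. Without Sham replicate 1 they were seen in 15, against 16.2%, so that any excess of large decreases depended on the libraries used. Among transcripts under 1 kb, 17 of 32 members fell (median -0.32), whereas the other 552 genes of that length had a median of 0.32 and 17% of them fell. For 1 to 2 kb, 10 of 20 members fell (median -0.33), and 18.9% of the others (median 0.20). Over 2 kb, 8 of 11 members fell (median -0.38) and 30.9% of the others (median -0.03). These lengths are of the longest transcript of a gene, which need not be the form expressed in the iris. After a trend on transcript length was removed from each library, 52 members fell, against 28.2% of all genes, and 22 of them by more than 1.5-fold, against 16.9%, with a median of -0.47.

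**Figure D2:**
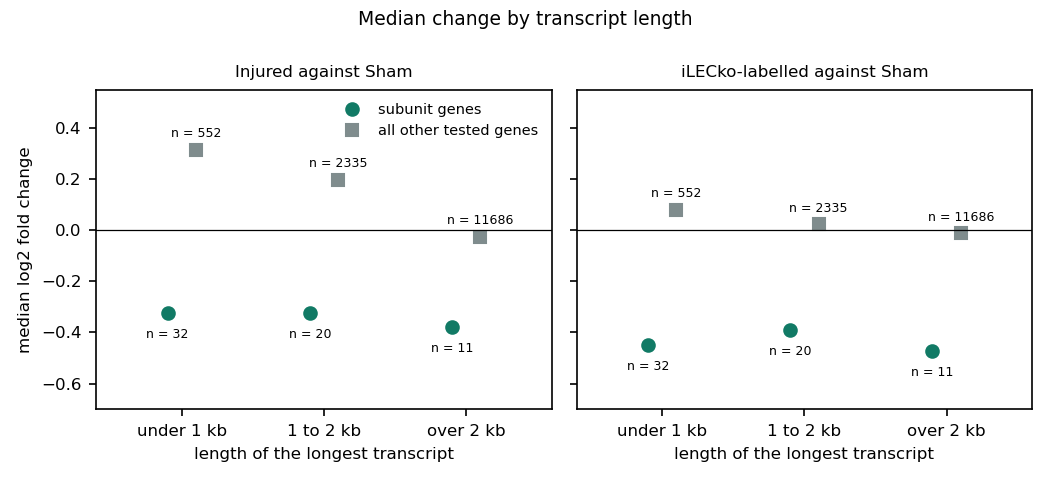
Median log2 fold change against Sham (vertical axis) for subunit genes (circles) and all other tested genes (squares), by length of the longest transcript (horizontal axis), in injured VEGFR3 fl/fl irises (left) and irises labelled VEGFR3 iLECko (right). Subunit medians lie between -0.47 and -0.32 in every class, and those of other genes between -0.03 and 0.32.

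Summed over genes, the chain was at 77.4% of its Sham level after injury. Complex I had a summed level of 2898, 3360 and 2878 CPM in Sham replicates 1 to 3, 2633, 2295 and 2237 CPM in the injured libraries and 2344, 2086 and 2139 CPM in the libraries labelled VEGFR3 iLECko. The groups of injured libraries did not overlap with Sham. Complex II was at 727, 755 and 752 CPM in Sham, 497, 496 and 505 CPM after injury and 508, 523 and 498 CPM in the libraries with the iLECko label, the smallest spread and, at 67.0% of Sham, the lowest level after injury among the 4 complexes. Complex III was on average at 987 ± 91.3 CPM in Sham and 765 ± 45.4 CPM after injury (SD, n = 3), and complex IV at 1942 ± 205 and 1547 ± 150 CPM (SD, n = 3), which was 77.5% and 79.7% of Sham. In complex IV the lowest Sham library had 1807 CPM and the highest injured library 1705 CPM. These sums are dominated by abundant members and were not tested.

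**Figure D3:**
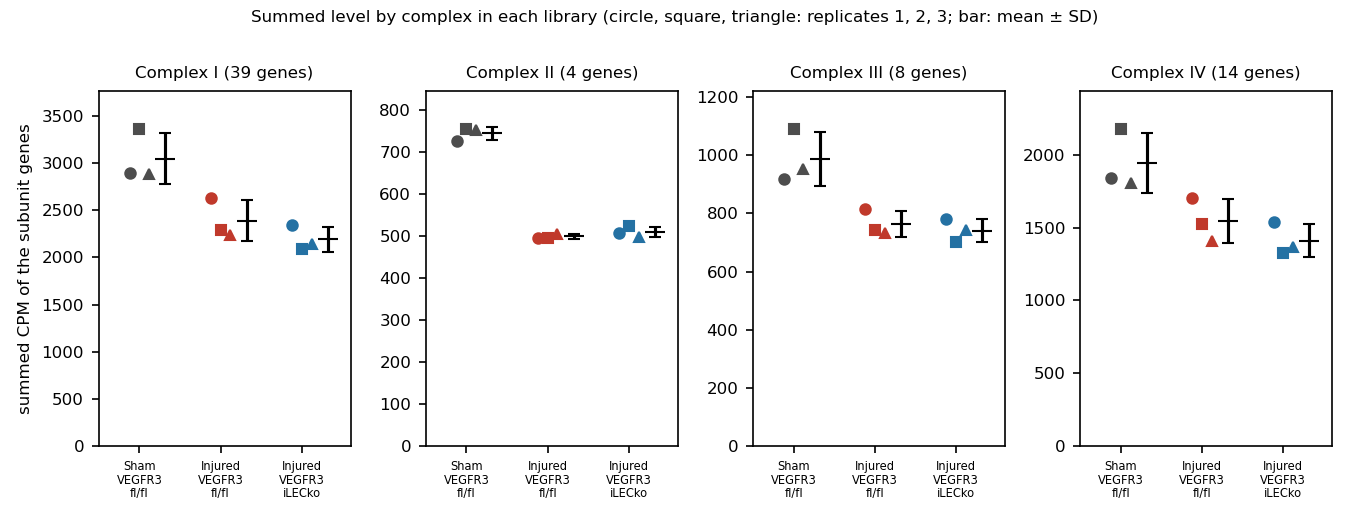
Summed CPM of the subunit genes of each complex (vertical axis, from 0) in each library of the 3 groups, with the mean and SD beside the points. Within every complex the 3 Sham libraries are above the 6 injured ones, and complex II has the narrowest groups.

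Complex I consists of conserved core subunits, of which 7 are coded in the nucleus, and of accessory subunits that were added during evolution. After injury 6 of the 7 core subunits fell, among them *Ndufs1*, *Ndufs7* and *Ndufv1*, and *Ndufs8* had a log2 fold change of -0.08. Of the other 31 tested genes with *Nduf* symbols, mostly accessory subunits, 15 fell and none rose. Over all genes tested, 28.4% fell and 31.5% rose. By symbol, *Ndufa4*, which fell, and *Ndufa4l2* are counted with complex I throughout. Counts of *Ndufa13*, *Ndufb11*, *Ndufb4* and *Ndufb4c* included reads that had been divided between genes, so that these values are less certain.

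*Ndufs1* (NCBI Gene ID 227197), the largest core subunit, which carries iron-sulfur clusters, had 132, 130 and 135 CPM in Sham replicates 1 to 3, 75.1, 78.7 and 77.3 CPM in the injured libraries and 88.0, 85.4 and 85.0 CPM in the libraries labelled VEGFR3 iLECko. Each group was tight and none overlapped with another. The log2 fold change after injury was -0.78 (SE 0.06, adjusted p = 3.83e-06), the smallest p of any member. *Ndufa4* (17992), named after complex I but now counted with complex IV, had 189, 208 and 188 CPM in Sham, 128, 110 and 111 CPM after injury and 129, 112 and 129 CPM under the iLECko label. Every injured library was below every Sham library, with a log2 fold change of -0.74 (SE 0.09, adjusted p = 0.000108). *Ndufa12* (66414), an accessory subunit of the arm that takes up NADH, had 89.3, 105 and 88.7 CPM in Sham, 65.8, 60.1 and 58.1 CPM after injury and 74.2, 58.6 and 53.5 CPM under the label. It fell after injury by 0.62 on the log2 scale (SE 0.13, adjusted p = 0.00218), with no overlap.

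*Ndufs7* (75406), a core subunit next to the site where ubiquinone is reduced, had 107, 128 and 103 CPM in Sham, 87.0, 67.3 and 69.1 CPM after injury and 68.8, 59.2 and 56.1 CPM under the iLECko label. It was below Sham in all 6 injured libraries. The log2 fold change against Sham was -0.59 after injury (adjusted p = 0.00315) and -0.87 under the label (SE 0.13, adjusted p = 0.000425). *Ndufb9* (66218), an accessory subunit of the membrane arm, had 119, 137 and 111 CPM in Sham, 90.7, 78.4 and 70.9 CPM after injury and 79.7, 67.5 and 69.2 CPM under the label. *Ndufv3* (78330), a small accessory subunit near the NADH site, had 99.6, 121 and 99.2 CPM in Sham, 78.0, 69.3 and 64.8 CPM after injury and 72.9, 58.4 and 59.5 CPM under the label. In both genes the injured libraries were all lower than the Sham libraries, with log2 fold changes against Sham of -0.61 and -0.59 after injury (adjusted p = 0.00155 and 0.00211) and of -0.76 and -0.75 under the label (adjusted p = 0.000524 and 0.000683).

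*Ndufa4l2* (407790), a relative of *Ndufa4* that is known as a target of hypoxia-inducible factor, did not follow the rest. It had 25.8, 31.7 and 23.7 CPM in Sham, 26.1, 43.4 and 39.9 CPM after injury and 33.1, 28.9 and 32.2 CPM under the iLECko label. Injured replicates 2 and 3 were above all Sham libraries and injured replicate 1 was among them. The log2 fold change after injury was 0.43 and missed the threshold (SE 0.18, adjusted p = 0.0685), and it passed without injured replicate 1 (0.62, adjusted p = 0.00241) or without Sham replicate 2 (0.56, adjusted p = 0.0425). Of the 17 members of complex I with no call after injury, 11 had a negative and 6 a positive log2 fold change, among the latter *Ndufa6* (0.25), *Ndufa8* (0.08) and *Ndufa3* (0.06).

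Complex II, succinate dehydrogenase, is also an enzyme of the tricarboxylic acid cycle and is the complex with all its subunits coded in the nucleus. *Sdha* (66945), the flavoprotein that oxidizes succinate, had 357, 343 and 357 CPM in Sham, 201, 213 and 221 CPM after injury and 232, 237 and 213 CPM under the iLECko label. The highest injured library was far below the lowest Sham library, and the log2 fold change was -0.74 (SE 0.07, adjusted p = 2.86e-05). *Sdhc* (66052), a membrane anchor, had 169, 193 and 181 CPM in Sham, 118, 122 and 115 CPM after injury and 121, 120 and 113 CPM under the label. *Sdhd* (66925), the other anchor, had 104, 102 and 108 CPM in Sham, 73.7, 73.3 and 78.8 CPM after injury and 74.8, 81.9 and 82.7 CPM under the label. Both anchors fell after injury without overlap, by 0.62 (SE 0.07, adjusted p = 6.71e-05) and 0.47 (SE 0.07, adjusted p = 0.000244) on the log2 scale. *Sdhb* (67680), the iron-sulfur subunit, had 97.2, 118 and 105 CPM in Sham and 105, 87.8 and 90.6 CPM after injury, so that the groups overlapped, and its log2 fold change of -0.18 was not called (adjusted p = 0.143).

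In complex III, which passes electrons from ubiquinol to cytochrome c, the 3 largest nuclear-coded subunits of the rule fell after injury, and 2 of the 5 small subunits. The share over all genes tested was 28.4%, to which 2 of 5 is close in so small a group. *Uqcrfs1* (66694), the Rieske iron-sulfur protein, had 89.0, 101 and 96.8 CPM in Sham, 60.7, 62.1 and 65.7 CPM after injury and 70.0, 67.3 and 70.9 CPM under the iLECko label. The 3 groups did not overlap, and the log2 fold change after injury was -0.61 (SE 0.07, adjusted p = 6.51e-05). *Uqcrc1* (22273), a core protein that faces the matrix, had 222, 256 and 236 CPM in Sham, 195, 177 and 171 CPM after injury and 185, 161 and 165 CPM under the label. Its log2 fold changes against Sham were -0.40 (adjusted p = 0.00391) and -0.48 (adjusted p = 0.00149), with no overlap in either case. *Uqcrc2*, the second core protein, had a log2 fold change of -0.45 after injury (adjusted p = 0.000310), from counts that included divided reads.

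The small subunits *Uqcr11* and *Uqcr10* showed the spread between libraries described above. *Uqcr11* (66594) had 67.7, 79.2 and 65.7 CPM in Sham, 51.8, 49.2 and 44.7 CPM after injury and 58.7, 42.3 and 47.4 CPM under the iLECko label, and *Uqcr10* (66152) had 85.9, 132 and 97.9 CPM in Sham, 85.4, 70.7 and 69.4 CPM after injury and 73.4, 73.0 and 68.4 CPM under the label. The lowest Sham and the highest injured library of *Uqcr10* were almost equal. The log2 fold changes after injury were -0.54 (adjusted p = 0.00476) and -0.49 (adjusted p = 0.0193). The call for *Uqcr10* was lost without Sham replicate 2 (-0.29, adjusted p = 0.0519), without injured replicate 2 (-0.44, adjusted p = 0.0583) and without injured replicate 3 (-0.43, adjusted p = 0.0630). *Uqcrh*, *Uqcrb* and *Uqcrq* had log2 fold changes from -0.22 to -0.16 and no call.

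**Figure D4:**
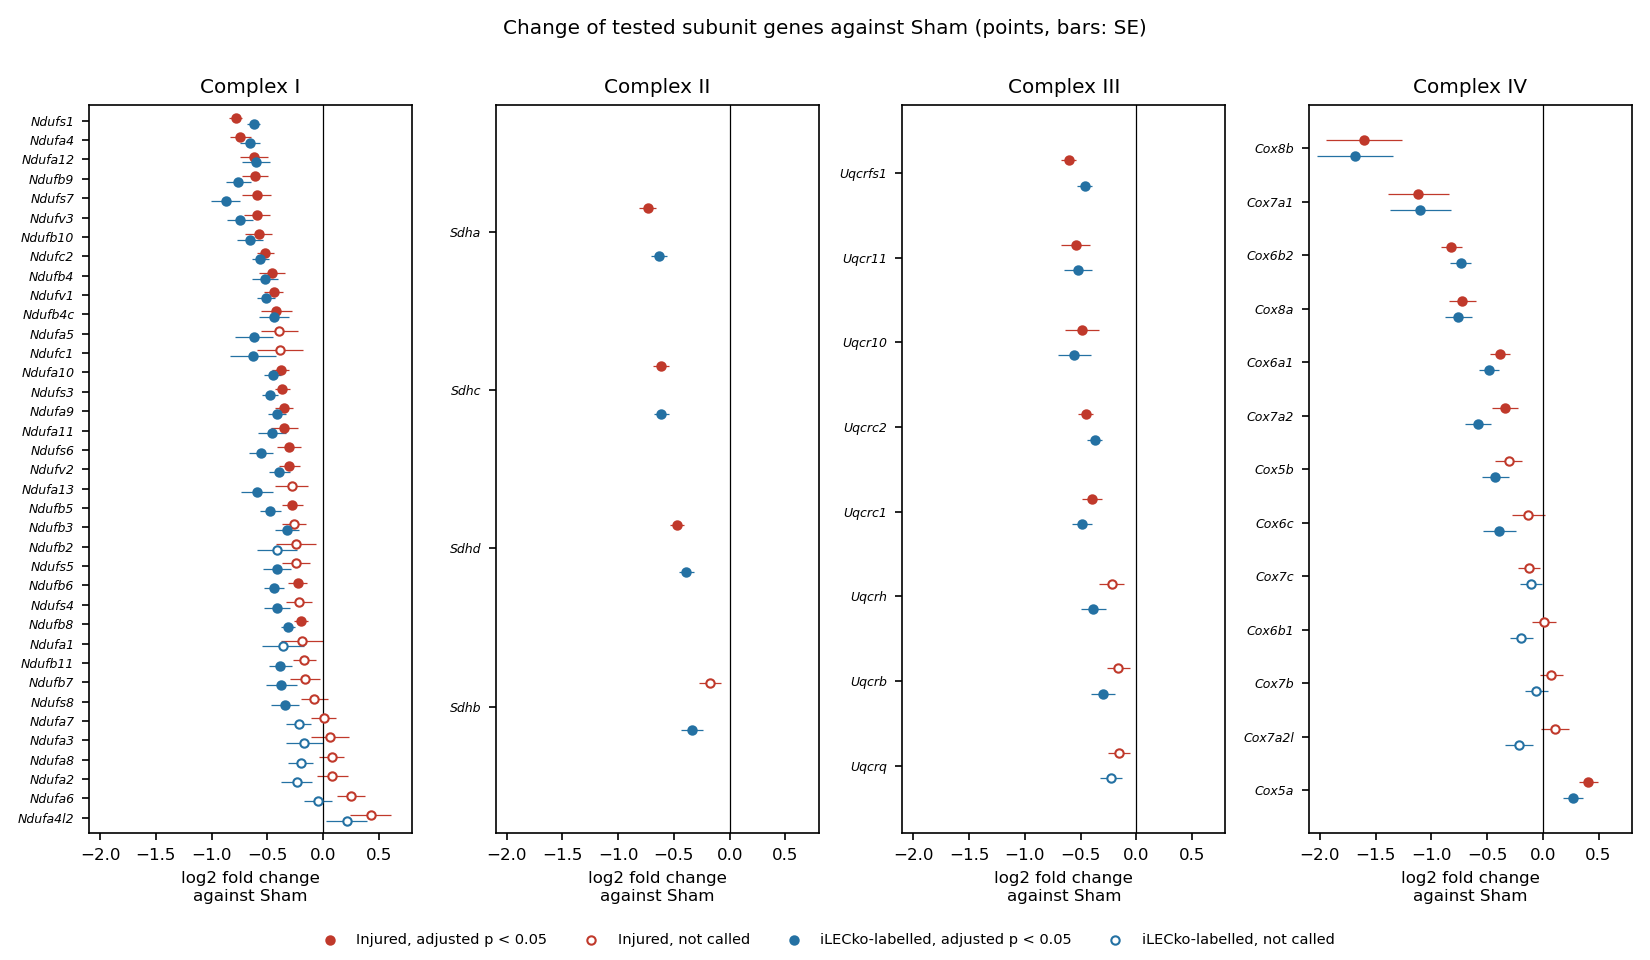
Log2 fold change against Sham (horizontal axis, bars are SE) of 62 of the 63 tested subunit genes by complex, in injured VEGFR3 fl/fl irises (red) and in irises labelled VEGFR3 iLECko (blue), with filled points for an adjusted p under 0.05. *Cox8b* and *Cox7a1* lie farthest to the left, *Cox5a* is the filled point on the right, and both comparisons share the Sham libraries.

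Complex IV, cytochrome c oxidase, had the widest range, from -1.61 to 0.41 on the log2 scale. Its nuclear-coded subunits surround the catalytic core, and several exist as a general form and a form of heart, skeletal muscle or testis. All 3 such tissue isoforms that were tested fell after injury (*Cox8b*, *Cox7a1* and *Cox6b2*), as did 2 of their 3 general partners, against 28.4% of all genes tested. *Cox8b* (12869), a muscle-type form of subunit 8, had 86.3, 97.8 and 77.9 CPM in Sham, 41.4, 19.8 and 24.9 CPM after injury and 39.2, 26.9 and 15.5 CPM under the iLECko label. Levels after injury were at most 41.4 CPM, and none reached the Sham level. The log2 fold change was -1.61 (SE 0.34, adjusted p = 0.00278), a fall of 67.2%, the largest of any member.

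*Cox7a1* (12865), the muscle-type form of subunit 7a, was scarce, with 4.43, 3.84 and 3.60 CPM in Sham, 1.64, 1.70 and 2.12 CPM after injury and 2.40, 1.93 and 1.21 CPM under the label. No injured library reached the Sham level, and the log2 fold change was -1.12 (SE 0.27, adjusted p = 0.00639). *Cox6b2* (333182), a form of subunit 6b best known from testis, had 30.3, 35.5 and 30.2 CPM in Sham, 17.4, 18.2 and 18.7 CPM after injury and 19.5, 20.6 and 17.4 CPM under the label. Its change of -0.82 (SE 0.10, adjusted p = 8.23e-05) came with little spread and no overlap. *Cox6b1*, its general partner, had a log2 fold change of 0.01 after injury (adjusted p = 0.938).

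*Cox8a* (12868), the general form of subunit 8, had 523, 635 and 516 CPM in Sham, 372, 319 and 324 CPM after injury and 375, 318 and 297 CPM under the iLECko label. Per kilobase of its longest transcript it was the most abundant member in Sham irises (1014 CPM per kb). It fell by 0.72 on the log2 scale after injury (SE 0.12, adjusted p = 0.000776) with no overlap. *Cox7a2* (12866), the general form of subunit 7a, had 85.5, 105 and 88.9 CPM in Sham, 85.2, 70.8 and 65 CPM after injury and 62.9, 58.7 and 65 CPM under the label. The log2 fold change of -0.34 after injury (adjusted p = 0.0285) was no longer called without Sham replicate 2 (-0.24, adjusted p = 0.106), injured replicate 2 (-0.31, adjusted p = 0.0787) or injured replicate 3 (-0.26, adjusted p = 0.0967), with the Y-linked covariate (adjusted p = 0.0569) or with only the 6 libraries compared (adjusted p = 0.0599), and counts of this gene included divided reads.

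*Cox5a* (12858), a subunit that faces the mitochondrial matrix, was the only member called higher. It had 50.3, 58.5 and 52.1 CPM in Sham, 71.9, 76.8 and 64.6 CPM after injury and 68.4, 61.8 and 63.8 CPM under the iLECko label. All 6 injured libraries were above all 3 Sham libraries. The log2 fold change was 0.41 after injury (SE 0.09, adjusted p = 0.00309), and the highest adjusted p under any alternative was 0.0364. *Cox7b*, *Cox7c*, *Cox6c*, *Cox5b* and *Cox7a2l* had log2 fold changes from -0.31 to 0.11 and no call.

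Ratios of paired isoforms within a library do not depend on its scaling. The log2 ratio of *Cox8b* to *Cox8a* was -2.60, -2.70 and -2.73 in Sham, -3.17, -4.01 and -3.70 after injury and -3.26, -3.56 and -4.26 under the iLECko label. It was lower in every injured library, by 0.95 on average after injury (exact permutation test, two-sided p = 0.1, the smallest that 3 libraries against 3 allow). The *Cox7a1* to *Cox7a2* ratio was -4.26, -4.77 and -4.61 in Sham and -5.67, -5.36 and -4.92 after injury, a difference of -0.77 without overlap (exact p = 0.1), and the libraries with the iLECko label, at -4.70, -4.91 and -5.72, overlapped with both groups.

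The other isoform pairs differed in the opposite direction. The *Ndufa4l2* to *Ndufa4* log2 ratio was -2.87, -2.71 and -2.98 in Sham, -2.29, -1.35 and -1.48 after injury and -1.96, -1.95 and -2.01 under the label. Every injured library was above Sham, with a mean difference of 1.15 after injury (exact p = 0.1). *Cox4i2* and *Cox4i1* code for a lung-type and the general form of subunit 4 and are not matched by the symbol rule. Their log2 ratio was -6.39, -6.86 and -6.63 in Sham, -5.93, -5.59 and -5.65 after injury and -6.13, -5.94 and -6.20 under the label, and the 3 groups did not overlap (differences from Sham 0.90 and 0.54, label against injured -0.37, exact p = 0.1 each). Over the 12 ratio tests the lowest adjusted p was 0.15, and no ratio could pass the threshold in this design.

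**Figure D5:**
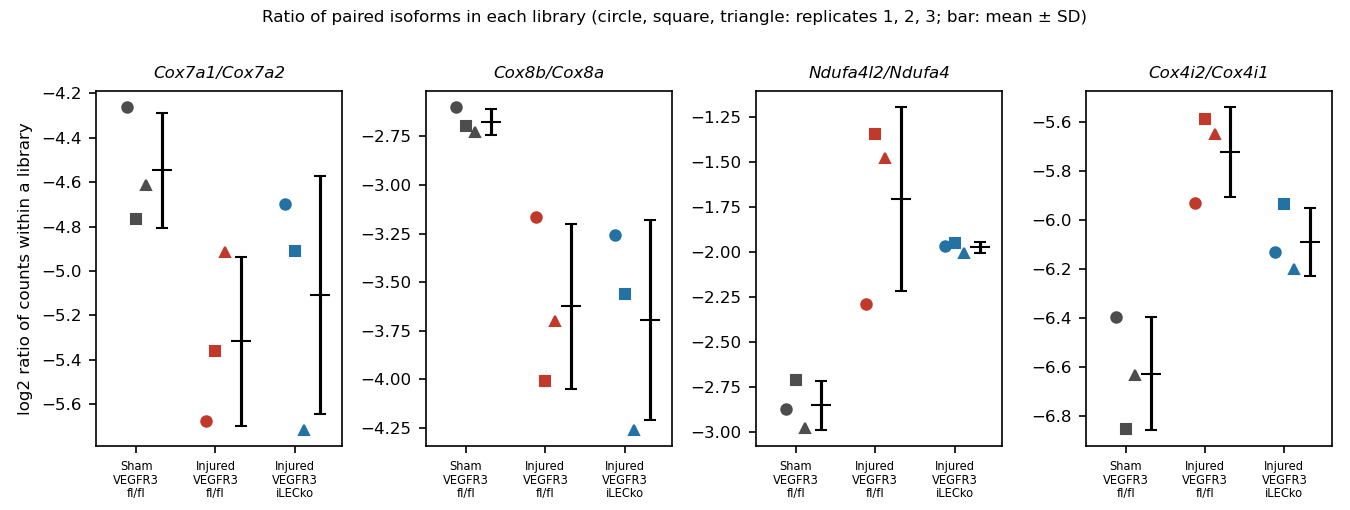
Log2 ratio of the counts of 2 isoforms within each library (vertical axis) for *Cox7a1*/*Cox7a2*, *Cox8b*/*Cox8a*, *Ndufa4l2*/*Ndufa4* and *Cox4i2*/*Cox4i1*, with the mean and SD beside the points. The ratios of the muscle-type isoforms differ from Sham by -0.77 and -0.95 after injury, and the *Ndufa4l2* and *Cox4i2* ratios by 1.15 and 0.90.

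The comparison of injured irises labelled VEGFR3 iLECko with injured VEGFR3 fl/fl irises was meant to address lymphatic *VEGFR3*, although *Flt4* was not called lower under the label. Between the libraries labelled VEGFR3 iLECko and injured VEGFR3 fl/fl, edgeR called 0 of 63 members lower, against 0.746% of all genes, and 0 higher, against 0.813%. At an unadjusted p under 0.05, 6 members were lower and 1 was higher, and DESeq2 also called 0. Log2 differences ranged from -0.32 (*Ndufa2*, SE 0.14, and *Cox7a2l*, SE 0.13) to 0.16 (*Ndufs1*, SE 0.06), and SE reached 0.34 for *Cox8b*. The smallest adjusted p was 0.135, for *Ndufs1*, whose 3 values under the label (85.0 to 88.0 CPM) were all above those after injury alone (75.1 to 78.7 CPM). In 9 members the libraries with the label were all below the injured ones, as in 14.3% of all genes. The median difference was -0.12, against -0.01 over all genes, and 0.05 after the length trend was removed. It was -0.06 without injured replicate 1, -0.18 without iLECko replicate 1 and -0.03 with Y-linked expression as a covariate. Counts at an unadjusted p under 0.05 moved too, to 0 lower and 12 higher after the length trend was removed. They were 0 and 0 with the Y-linked covariate, 1 and 1 with only the 6 libraries compared, and 14 and 1 without injured replicate 3. Complex sums under the label were 91.7% (I), 102% (II), 97.0% (III) and 91.2% (IV) of those after injury alone.

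Against Sham, the libraries labelled VEGFR3 iLECko had 49 of 63 members lower, against 26.3% of all genes, and *Cox5a* higher, against 28.1%. This comparison shares its Sham libraries with the one above, and its median log2 fold change was -0.44. Lower members were 30 of 38 in complex I, including all 7 nuclear-coded core subunits, 4 of 4 in complex II, 7 of 8 in complex III and 8 of 13 in complex IV. By more than 1.5-fold, 16 members fell, against 15.0% of all genes, and in 53 members no library with the label reached the Sham level, against 33.2%. Without Sham replicate 2, 38 members were lower, against 22.6% of all genes, and 11 of them by more than 1.5-fold, against 14%. Without iLECko replicate 1, 45 were lower, against 23.8%, and 19 of them by more than 1.5-fold, against 14.7%. With Y-linked expression as a covariate, 15 members were lower, against 13.8% of all genes, and 6 of them by more than 1.5-fold, against 10.8%, and the median was -0.33. Y-linked signal and label cannot be told apart here.

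*Cox8b* was at -1.68 (SE 0.34, adjusted p = 0.00251), *Cox7a1* at -1.10 (SE 0.27, adjusted p = 0.00771) and *Cox8a* at -0.76 (SE 0.12, adjusted p = 0.000718) on the log2 scale against Sham. *Sdha*, *Sdhc* and *Sdhd* were at -0.63, -0.61 and -0.39, and *Uqcr10* and *Uqcr11* at -0.56 and -0.52. *Cox8b*, *Uqcrc1*, *Uqcr10* and *Uqcr11* lost their calls with the Y-linked covariate (adjusted p = 0.0880, 0.0904, 0.264 and 0.217). *Cox5a* was at 0.27 (SE 0.09, adjusted p = 0.0267), and was not called without Sham replicate 1 or 3 (adjusted p = 0.0981 and 0.0847), without iLECko replicate 1 or 3 (adjusted p = 0.0816 and 0.0543), or under upper quartile scaling, library size scaling or the GC offset (adjusted p = 0.0511, 0.138 and 0.0699).

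Further subunits are not matched by the symbol rule. *Cyc1*, cytochrome c1 of complex III, had 140, 157 and 150 CPM in Sham and 90.8, 88.9 and 85.5 CPM after injury, a log2 fold change of -0.75 (SE 0.07, adjusted p = 2.59e-05) with no overlap. *Cox4i1* fell by 0.45 on the log2 scale (adjusted p = 0.00460), *Ndufab1*, the acyl carrier protein of complex I, by 0.58 (adjusted p = 0.000277) and *Cycs*, cytochrome c, by 0.41 (adjusted p = 0.00214). *Cox4i2* was scarce, with 3.73 to 4.26 CPM in Sham and 5.10 to 6.03 CPM after injury, and was called higher (0.46, adjusted p = 0.0331). That call was lost in 10 of 21 alternatives, among them when any of Sham replicates 1, 2 and 3 (adjusted p = 0.0504, 0.0861 and 0.0887), injured replicate 2 (0.101) or injured replicate 3 (0.0533) was left out, and under library size scaling (0.166).

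Other mitochondrial gene lists are given by their counts, to be read against the 28.4% of all genes that fell after injury and the 31.5% that rose. The shares of ATP synthase and the assembly factors that fell were near that background. All 14 genes of the tricarboxylic acid cycle fell (median log2 fold change -0.57), led by *Suclg2*, a succinate-CoA ligase subunit (-1.38), and *Idh2*, the mitochondrial NADP-dependent isocitrate dehydrogenase (-0.86). In mitochondrial fatty acid oxidation 15 of 18 fell and none rose, among them *Eci1* (-1.20), *Acaa2* (-1.11) and *Hadh* (-1.01). ATP synthase had 6 of 18 lower, including the catalytic subunits *Atp5b* (-0.90) and *Atp5a1* (-0.84), and 1 higher, *Atpif1*, the inhibitor of the enzyme (0.50, adjusted p = 0.00282). The median of this list was -0.25. Its summed level was 4804 to 5280 CPM in Sham and 3376 to 3665 CPM after injury, without overlap, and was not tested. Of 45 assembly factors of the chain 14 fell, such as *Cox11* (-0.78), and 2 rose. By contrast, the mitochondrial ribosome had 7 of 78 genes lower and 15 higher, with a median of 0.01. Against Sham, the libraries labelled VEGFR3 iLECko had 13 of 14, 16 of 18, 9 of 18, 15 of 45 and 23 of 78 genes of these lists lower, against 26.3% of all genes. Pyruvate entry had 6 of 11 genes lower after injury and 2 higher, import and the outer membrane 7 and 3 of 20, and the hypoxia response 4 and 4 of 12. Between the label and injury alone, none of these lists had a call.

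Of 19 regulators of mitochondrial genes, 11 fell after injury and 3 rose. *Ppargc1a* (19017), the coactivator PGC-1alpha, had 43.4, 39.3 and 46.0 CPM in Sham, 7.10, 9.19 and 12.2 CPM after injury and 17, 18.2 and 17.3 CPM under the iLECko label. The 3 groups were fully apart. Its log2 fold change was -2.17 after injury (SE 0.17, adjusted p = 6.42e-06) and 0.88 between the label and injury alone (SE 0.17, adjusted p = 0.0421), where no member was called, but its adjusted p reached 0.380 among the alternatives. *Esrrg* (-1.74), *Ppara* (-1.97) and *Esrra* (-0.62, adjusted p = 0.000100), nuclear receptors that act with *Ppargc1a*, also fell. The 3 regulators that rose were *Pprc1*, *Ppard* and *Gabpb1*, a subunit of GABP (0.54, adjusted p = 0.000378).

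Markers of cell types moved in the same comparisons, and their part in the changes of the chain was not tested. After injury all 7 pigment cell markers fell (summed level 27656 to 29613 CPM in Sham, 3371 to 5810 CPM after injury), and so did 6 of 7 smooth muscle markers (7981 to 10284 CPM in Sham, 1680 to 3416 CPM after injury) and 4 of 4 Schwann cell markers. All 9 macrophage markers rose (353 to 369 CPM in Sham, 3294 to 3624 CPM after injury), as did 6 of 6 T cell, 5 of 5 blood endothelial, 2 of 4 lymphatic endothelial and 4 of 6 fibroblast markers. Under the iLECko label these summed levels were 5053 to 7113 CPM for pigment cells, 2434 to 3838 CPM for smooth muscle and 2089 to 2322 CPM for macrophages, of which 6 of 9 markers were lower than after injury alone. Photoreceptor markers varied between libraries (66.9 to 634 CPM in Sham, 9.59 to 364 CPM after injury) with no call among 3, ciliary body markers had none among 2 and corneal epithelial markers, at a summed level of 1.80 to 21.2 CPM in Sham and 0.364 to 1.40 CPM after injury, had 2 of 2 lower (*Krt5* -4.12 and *Krt12* -2.11).

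Of 12 striated muscle markers, 11 were in the files and 7 were tested. *Acta1*, *Myh1*, *Tnnc2* and *Pvalb* were too low to be tested in any group, with at most 22 counts in a library. *Ckm*, muscle creatine kinase, had 233, 294 and 235 counts in Sham and 0 to 2 in all 6 injured libraries, and *Mybpc1*, a myosin-binding protein, had 739, 875 and 748 counts in Sham and 0 to 2 in the others. *Myh2* was called higher after injury (adjusted p = 0.0459), from 1 to 8 counts in Sham to 6 to 55. Over the 7 tested markers, 2 fell and 1 rose after injury, with a median log2 fold change of 0.33. The summed level of the list was 59.4 to 71.6 CPM in Sham. It was 5.57 to 9.35 CPM after injury and 5.20 to 9.01 CPM under the iLECko label. The part of striated muscle in the change of *Cox8b* and *Cox7a1* was not tested.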

How the data were processed

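Iris RNA was measured by RNA-Seq in 9 libraries of 3 groups, taken from the titles, descriptions and treatment labels. The authors sequenced single-end reads of 50 bases and deposited estimated counts per gene without normalization. According to the submitters' processing notes, HISAT2 2.0.4, Bowtie2 2.2.5, DESeq2 1.4.5 and the build mm10 were used. The program that estimated counts and its annotation are not given in the sources used here. Genotype tags of iLECko replicates 2 and 3 name another VEGFR number and were not followed.

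Expected counts were rounded to whole numbers (9.83% to 10.3% of values were not whole), filtered with filterByExpr (15010 of 18349 genes kept), scaled by TMM and fitted together with edgeR 4.0.16 in R 4.3.3, with group as the only term. SE was computed from the F statistic. Ratios had 0.5 counts added and were tested by exact permutation. Fits with DESeq2 1.42.0, other scalings, filters and libraries were alternatives, and the offsets for transcript length and GC content, the Y-linked covariate and leaving out both libraries were added after the data were seen. Replicates, which by the study's methods are pools of different mice, differed by more than counting noise (chi-square per degree of freedom 5.12 to 77.6). Depth was alike in all libraries, so that precision rests mainly on the spread between 3 libraries a group. The procedure was tested on simulated data in which few genes changed and no length trend was present. As these data differ in both, that test says little about the results here.

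The symbol rule for members uses no measured value, but the rule, gene lists and roles were chosen with earlier results of these data known. Full values were given for up to 3 members per complex, comparison and direction with the largest called change, for the isoform pairs, and for up to 3 called genes per list. Genes that correlate with the members were not reported, since libraries fall into separate clusters. The series' combined table, which repeats these counts, and mitochondrially coded genes were not analysed here. Single-gene values of 1 member and of 1 other listed gene are not reported here, although both are in the counts.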

Additional observations from a re-analysis of the deposited data

How the results depend on the processing

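Across 21 alternatives the members stayed lower after injury as a set, with a median log2 fold change between -0.52 and -0.23. Called lower were 26 to 52 of 63, against 23.2% to 38.4% of all genes in the same fits. Scaling by library size alone shifted the median of all genes to -0.16, called 50 members lower, against 38.4% of all genes, and moved the summed CPM of complex II to 794 in Sham and 473 after injury. Called more than 1.5-fold lower after injury were 22 members with library size scaling, against 23.5% of all genes. With the length offset 22 were, against 16.9%, and 7 to 15 when a library was left out, against 16.2% to 17.6%. The Y-linked covariate gave 10, against 17.7%, and the GC offset 11, against 17%. Members called higher after injury were 1 to 2 when a library was left out and 2 without both Sham replicate 2 and injured replicate 1. Between the iLECko label and injury alone, no alternative called a member. Between the label and Sham, the Y-linked covariate called 15 members lower, against 13.8% of all genes, and 6 by more than 1.5-fold, against 10.8%. Library size scaling called 25 by more than 1.5-fold, against 18.5%. Members called higher there were 0 under upper quartile scaling, library size scaling and the GC offset, 2 without both libraries, and 0 to 1 when a library was left out. The cause of these shifts was not tested.

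Same-numbered libraries did not deviate together (correlation of deviations -0.387 to 0.131), so numbers do not pair them. With the replicate block, 34 members were lower after injury, against 27% of all genes. Between label and injury 0 were, against 0.0866%, and between label and Sham 46, against 24.3%. Of single-gene values under an alternative, 828 kept their side of the threshold, 29 lost a call and 4 gained a call, none with a change of sign of a called value.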
